A study of Homo sapiens with 4 samples.

Results

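Chromosome 8 of ME-1 leukaemia cells carried more peaks of accessible chromatin, and higher ones, than autosomes of like gene density. The members described here are the peaks on chromosome 8 (genome build hg19), without a 3 Mb stretch around MYC that was left out. They numbered 4036 of 67388 peaks in DMSO replicate 1, 3992 of 65132 in DMSO replicate 2, 2925 of 48930 in AI-10-49 replicate 1 and 3182 of 53438 in AI-10-49 replicate 2. Merged over the 4 lists they formed 6201 of 103050 regions. The chromosome was chosen by its high peak density in these same lists, so that density is given as a description without a test. Chromosomes 4, 5, 7 and 10 served as the reference, with 21695 merged regions.

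ME-1 is an established line of human acute myeloid leukaemia. It carries inv(16), which fuses CBFB to MYH11, and this fusion was present in every library. Cells were grown for 6 h with the solvent DMSO or with 1 µM AI-10-49, an inhibitor of the fusion protein, and 2 libraries were made per treatment from what the series calls independent experiments. The lists give peaks only, so no gene marker of the cell type could be checked, and no karyotype of the line is given in the sources used here.

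In ATAC-seq the Tn5 transposase cuts open DNA, and a peak is called where more reads pile up than in the DNA around it. The reads between open sites follow how much DNA is present and how readily it is cut and mapped. An additional chromosome copy adds reads to open sites and to the DNA between them alike, while more open sites add reads mainly at those sites. Gain of chromosome 8 is a recurrent change in acute myeloid leukaemia. As arithmetic, 3 copies in place of 2 in every cell would raise reads 1.5-fold.

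Peak density was compared first. It is the number of peaks per usable Mb, where a 1 Mb window is usable if it holds at least 1 merged region. Chromosome 8 had 142 usable Mb and the reference 659. With DMSO it held 28.4 and 28.1 peaks per usable Mb in replicates 1 and 2, against 21.7 and 21.2 on the reference. With AI-10-49 it held 20.6 and 22.4, against 15.1 and 16.5. The ratio of chromosome 8 to the reference was 1.31 and 1.33 in the DMSO libraries, 1.36 in each AI-10-49 library, and so it was above 1 in all 4 libraries. The mean was 1.34 ± 0.0251 (SD, n = 4).

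None of the 4 reference chromosomes reached this value. Set against the other three, chromosome 4 was lowest at 0.817 to 0.874 over the libraries, and chromosome 7 was highest at 1.06 to 1.13. Chromosome 7 carries recurrent deletions in inv(16) leukaemia, and without it in the reference the mean ratio of chromosome 8 was 1.37. Protein-coding genes numbered 5.04 per usable Mb on chromosome 8 and 5.08 on the reference. Per coding gene there were 5.64, 5.58, 4.09 and 4.45 peaks on chromosome 8 against 4.27, 4.17, 2.98 and 3.25 on the reference, listed as DMSO replicate 1, DMSO replicate 2, AI-10-49 replicate 1 and AI-10-49 replicate 2. Further runs of 4 values keep this order. By peaks per usable Mb, only chromosomes 11, 19 and 20 stood above chromosome 8 among the 22 autosomes with DMSO. Chromosomes 17 and 22 joined them with AI-10-49. All 5 carry more genes per usable Mb than chromosome 8, with 8.80 on chromosome 20 as the lowest. By peaks per coding gene, only chromosome 18 stood above chromosome 8, at 7.14, 7.19, 5.04 and 5.54. It has just 3.51 coding genes per usable Mb. Chromosome 13, with 3.48, came next after chromosome 8 at 5.46, 5.53, 3.71 and 4.20.

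**Figure D1:**
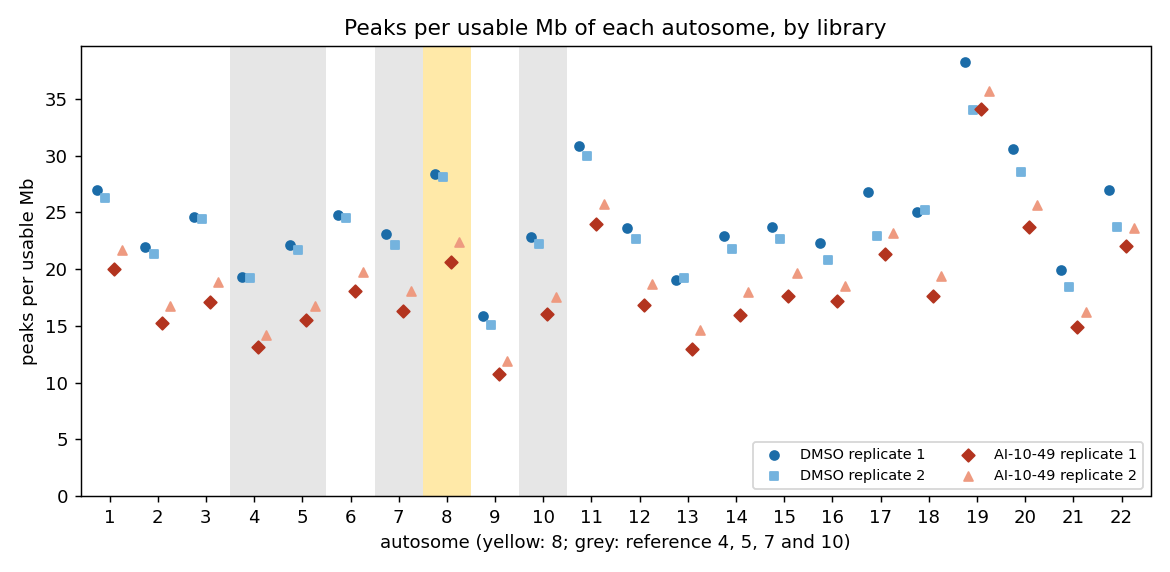
Peaks per usable Mb (y axis) on each of the 22 autosomes (x axis), with 1 point per library. Chromosome 8 (yellow) lay above the reference chromosomes (grey) in each of the 4 libraries, and chromosomes 11, 19 and 20 lay above chromosome 8.

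The excess was largest among tall peaks. Height is the number of reads at the summit, which was recovered from the deposited fold and p-value. Among peaks with 2 to 5 reads the density ratio was 1.14, 1.19, 1.16 and 1.20. Among peaks with 6 to 10 reads it was 1.40, 1.40, 1.38 and 1.26. Among peaks with 11 reads or more it was 1.80, 1.86, 1.66 and 1.69. Thus each library rose from the low to the tall class. The tall class held the fewest peaks of chromosome 8 except in AI-10-49 replicate 2, where 943 peaks had 2 to 5 reads. On chromosome 8, 824, 693, 857 and 1080 peaks had 11 reads or more. These were 20.4%, 17.4%, 29.3% and 33.9% of its peaks, against 14.8%, 12.4%, 24.1% and 27.2% of reference peaks.

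Both ends of the range stood apart from the classes beside them in the DMSO lists. Peaks of 30 reads or more were 2.57, 3.61, 2.17 and 1.98 times as dense on chromosome 8 as on the reference, from 86, 56, 114 and 145 peaks. For peaks of 20 to 29 reads the ratios were 1.85, 1.75, 1.64 and 1.79, so the step was smallest in AI-10-49 replicate 2. At the other end, peaks with 2 reads, which only the DMSO lists hold, had ratios of 1.38 and 1.40. Peaks with 3 reads had 0.990 and 1.09 in these lists. Local background, described further on, was at most 0.104 and 0.101 reads per base at peaks with 2 reads, against at most 0.269 and 0.267 at peaks with 3.

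**Figure D2:**
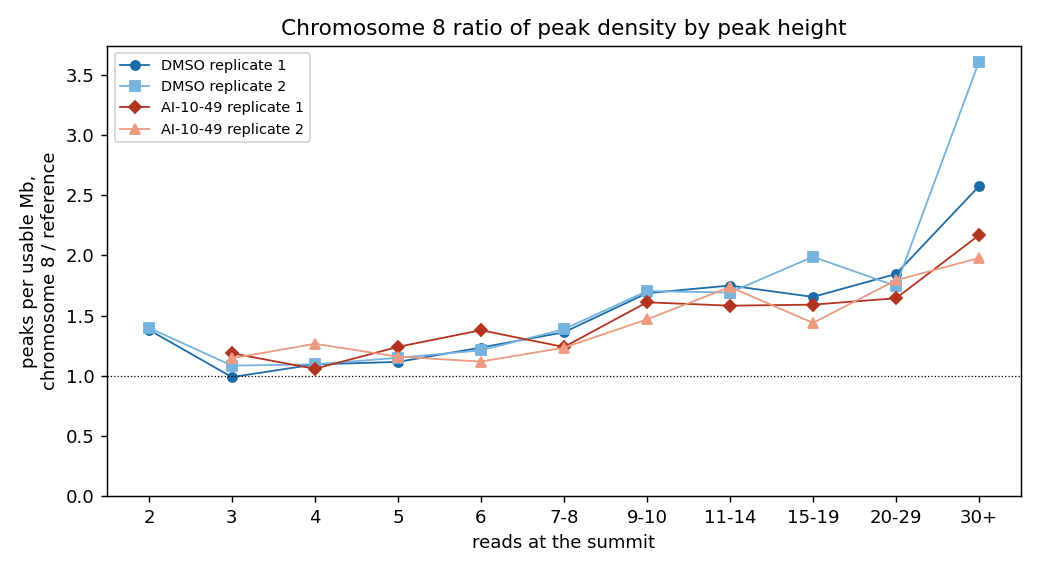
Ratio of peaks per usable Mb, chromosome 8 over the reference (y axis), by class of reads at the summit (x axis), with 1 line per library and a dotted line at 1. The ratio was 0.990 to 1.19 at 3 reads and 1.98 to 3.61 at 30 reads or more, without a rise at every class between.

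From 6 to 20 reads, the number of reads that gave equal peak density differed by a similar factor. For this description, chosen after the data were seen, the number of reads was found at which chromosome 8 had as many peaks per usable Mb as the reference had at a given number. At 10 reads or more the reference held 3.81, 3.16, 4.27 and 5.28 peaks per usable Mb. At the same reads chromosome 8 held 6.80, 5.99, 7.18 and 8.83. It came down to the reference density at 13.7, 13.5, 13.6 and 13.8 reads. Over the 5 thresholds of 6, 8, 10, 15 and 20 reads the factor ran from 1.32 to 1.40 in DMSO replicate 1 and from 1.29 to 1.37 in DMSO replicate 2. It ran from 1.31 to 1.38 and from 1.32 to 1.41 in AI-10-49 replicates 1 and 2. The factor depends on the number and height of open sites, so it is not a measure of copies. It therefore cannot be set against the 1.5 of the arithmetic above. Thresholds within a library share peaks, so its 5 values are not independent.

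Medians of this factor were 1.37, 1.35, 1.35 and 1.38. The treatments overlapped in it. Reference chromosomes, each against the other three, ranged from 0.861 (chromosome 4) to 1.13 (chromosome 7). Only chromosomes 11 and 19 had a higher factor than chromosome 8, in every library. Chromosome 11 reached 1.53, 1.49, 1.64 and 1.63, and it has 9.78 coding genes per usable Mb. Chromosome 18, with 3.51 genes per usable Mb, had 1.21, 1.15, 1.24 and 1.21, so a factor above that of the reference was not found on chromosome 8 alone.

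**Figure D3:**
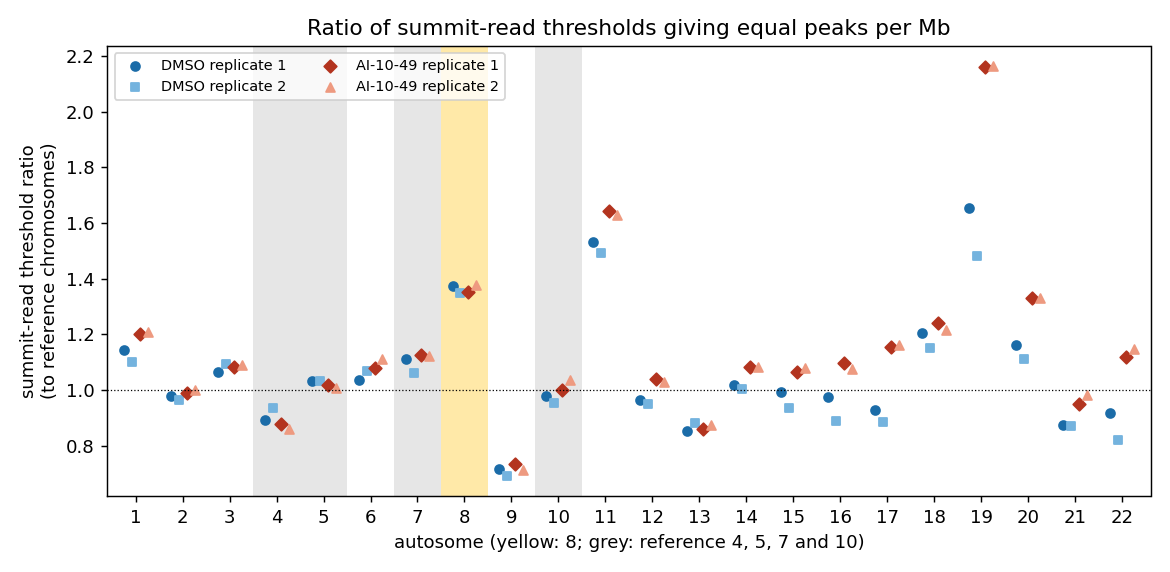
Median over 5 thresholds of the ratio of summit reads that give equal peak density on an autosome and on the reference (y axis), for each autosome (x axis) and library; the dotted line is 1. The 4 points of chromosome 8 sat between 1.35 and 1.38, above the reference chromosomes (0.861 to 1.13) and below chromosomes 11 and 19.

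Sites that all libraries shared were also taller on chromosome 8. There were 1855 regions with a peak in all 4 lists on chromosome 8 and 6053 on the reference, or 13.1 and 9.19 per usable Mb, a ratio of 1.42. Regions of 3 lists had a ratio of 1.22, regions of 2 lists 1.11 and regions of a single list 1.37. At shared regions the mean height was 11.8 reads on chromosome 8 against 10.1 on the reference in DMSO replicate 1, and 10.6 against 9.12 in DMSO replicate 2. It was 12.6 against 11.2 and 14.4 against 12.7 in AI-10-49 replicates 1 and 2. Medians were 9, 9, 10 and 11 reads on chromosome 8, and 8, 8, 9 and 10 on the reference. The ratio of means was 1.16, 1.16, 1.13 and 1.13. This was smaller than the factor between thresholds, which takes in the number of peaks as well as their height. Reference chromosomes ranged from 0.925 to 1.07 in this ratio. Chromosome 11 was higher than chromosome 8 in every library, at 1.24, 1.21, 1.28 and 1.29. Chromosome 19 was higher with AI-10-49, at 1.35 and 1.32, where chromosome 18 came close at 1.12 and 1.13.

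Shape and spacing of the peaks differed little or followed density. Median width was 106, 101, 115 and 118 bp on chromosome 8 and 106, 102, 116 and 118 bp on the reference. Median distance between neighbouring summits was 16.9, 18.2, 19.8 and 18.2 kb on chromosome 8, against 20.4, 22.3, 24.5 and 23.3 kb.

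Local background was then compared at equal height. It is the number of reads per base expected around a summit, as the peak caller used it, recovered from the same 2 columns. It never fell below a floor of 0.0613 and 0.060 reads per base with DMSO and 0.0965 and 0.108 with AI-10-49, and it includes the reads of the peak itself. Peaks with many reads therefore have a high local background of their own, and peaks in sparse DNA sit at the floor. For peaks of 3 to 10 reads, weighted to the heights found on chromosome 8, the ratio of mean background to the reference was 1.12, 1.15, 1.17 and 1.16. The mean was 1.15 ± 0.0225 (SD, n = 4). Reference chromosomes ranged from 0.881 (chromosome 4) to 1.08 (chromosome 10). Chromosomes 11 and 19 stood above chromosome 8 in every library, chromosome 20 in both AI-10-49 libraries and chromosome 22 in AI-10-49 replicate 2. At each of the 8 levels from 3 to 10 reads, mean background was higher on chromosome 8 in all 4 libraries.

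The difference was also present at isolated peaks, which have no other peak of the list within 10 kb. Among isolated peaks with 4 reads, the local background was above the floor at 86.4% and 85.8% of chromosome 8 peaks with DMSO (214 and 240 peaks), and at 72.9% and 70.8% of reference peaks (966 and 1051). With AI-10-49 it was above the floor at 89.3% and 77.5% (196 and 209 peaks), against 61.5% and 54.7% (823 and 841). No single reference chromosome reached the chromosome 8 value, the highest being 79.2%, 75.3%, 73.3% and 60.9% in the 4 libraries.

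Median background at isolated peaks with 5 reads was 0.104 and 0.111 reads per base on chromosome 8 and 0.0908 and 0.0912 on the reference with DMSO. With AI-10-49 it was 0.144 and 0.160 on chromosome 8 and 0.122 and 0.124 on the reference. The ratio of means at isolated peaks of 3 to 10 reads was 1.10, 1.09, 1.18 and 1.18. In DMSO replicate 2 isolated peaks with 9 reads went the other way, at a ratio of 0.971 from 62 peaks on chromosome 8. By this ratio 4 to 7 other autosomes stood above chromosome 8, among them chromosomes 11, 19, 20 and 22 in every library.

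The peak's own reads are part of the local background, so these ratios do not describe the DNA between peaks alone. Values of the local background came in steps of 0.00649, 0.00652, 0.00625 and 0.00651 reads per base, and 84.5% to 90.8% of those above the floor lay within 0.1 step of a whole number. At isolated peaks, 1 step was taken off the median background for each summit read, a calculation added after the data were seen. The ratio was then 1.19 to 1.33 over the libraries, with a mean of 1.26. This is a ratio of medians while those above are of means, so they are not directly comparable. At each level the same amount was taken off on both sides, which by itself moves a ratio above 1 further up. That 1 step is 1 read was assumed from the spacing alone. By level of summit reads the ratio ran from 0.833 to 1.57, and it was below 1 in DMSO replicate 2 at 9 and 10 reads, with 0.906 and 0.833. Reads of the peak that do not cover its summit remained in it. Low values were replaced by the floor more often on the reference.

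**Figure D4:**
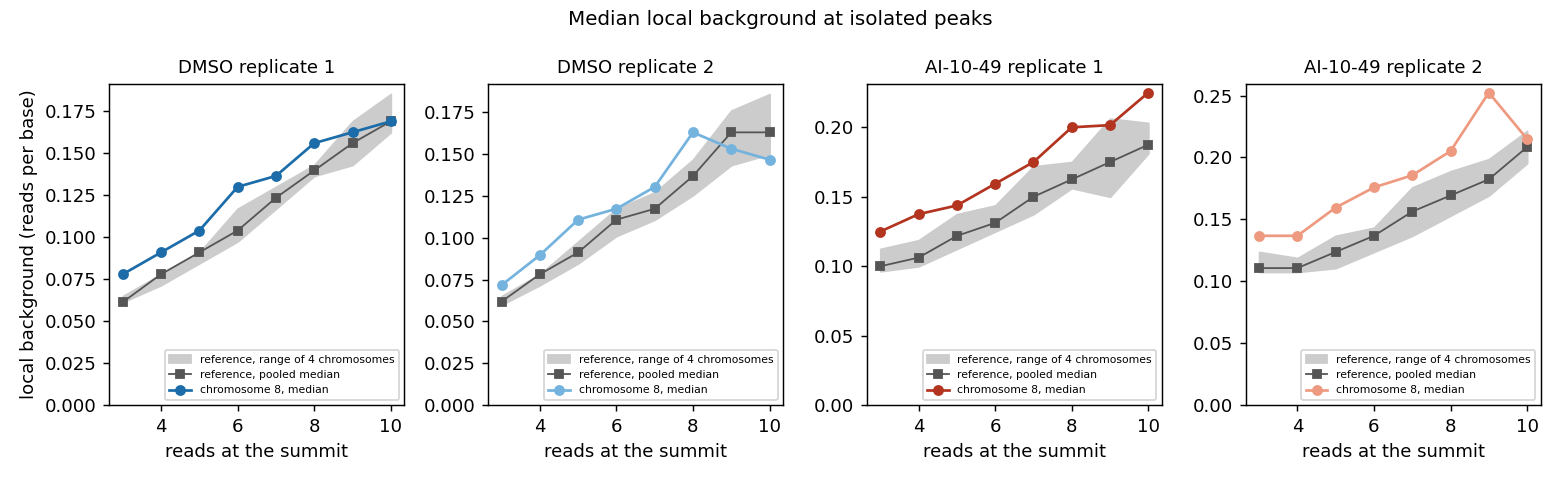
Median local background in reads per base (y axis) at isolated peaks by reads at the summit (x axis), with 1 panel per library. Coloured points are chromosome 8, grey squares the pooled reference, and the grey band spans the 4 reference chromosomes; chromosome 8 lay above the band at 5 to 7 of the 8 levels.

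The excess was spread along the chromosome and not held by 1 stretch. The widest stretch without a region, chr8:43838749–46841549, divides the chromosome into a short arm side with 44 usable Mb and a long arm side with 98. The density ratio to the reference was 1.31, 1.29, 1.39 and 1.39 on the short arm side and 1.31, 1.34, 1.35 and 1.35 on the long arm side. The background ratio was 1.12, 1.16, 1.19 and 1.23 on the short arm side and 1.12, 1.15, 1.16 and 1.13 on the long arm side. Both sides were thus above the reference in both measures and in every library.

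In 10 Mb windows, 13, 11, 13 and 12 of the 15 windows of chromosome 8 had more peaks per usable Mb than the median of the 67 reference windows. For peaks of 11 reads or more, these counts were 15, 15, 12 and 13. The median window held 28.6, 28.2, 20.0 and 21.7 peaks per usable Mb, against 21.6, 22.1, 15.3 and 16.8 on the reference. The lowest window of chromosome 8 held 20.4, 20.2, 12.5 and 13.7, whereas the lowest of the reference held 7.5, 9.7, 3.8 and 4.6. Windows as sparse as the sparse end of the reference were therefore not found on chromosome 8.

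The densest window was chr8:20000001–30000000, with 41.5, 38.8, 32.5 and 36.0 peaks per usable Mb. Its background ratio was 1.12, 1.24, 1.25 and 1.27. Next came chr8:140000001–150000000 at the end of the long arm, with 39.6, 35.1, 32.4 and 36.9 peaks per usable Mb over 7 usable Mb. That window had the highest background ratio of the chromosome, 1.39, 1.52, 1.69 and 1.70. After these came chr8:120000001–130000000, from which part of the stretch around MYC had been left out, with 35.9, 36.9, 27.1 and 29.4 over 8 usable Mb. Without the first and second of these windows the mean density ratio was 1.25 and the mean background ratio 1.10. The median factor between thresholds was then 1.34, 1.32, 1.28 and 1.31.

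The sparsest windows lay on the long arm and at chr8:30000001–40000000. Windows chr8:70000001–80000000 and chr8:110000001–120000000 each averaged 17.2 peaks per usable Mb over the libraries, close to the reference medians. Their background ratios, averaged over the libraries, were the lowest of the chromosome. By library they were 0.911, 0.984, 0.983 and 1.02 in the former and 0.775, 0.841, 0.789 and 0.823 in the latter. At isolated peaks of the latter the ratio was 0.927, 0.993, 0.992 and 0.977. The window chr8:30000001–40000000 averaged 19.0 peaks per usable Mb, and its background ratio was above 1 in every library, at 1.18, 1.22, 1.22 and 1.25.

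Background also moved with peak density among windows, on the reference as on chromosome 8. Each window of chromosome 8 was therefore set beside reference windows within 10% of its peak density. Such windows existed for 14 of the 15. In 13 of these 14 the background ratio at isolated peaks, averaged over the libraries, was above the median of the matched windows. Of the 14, 3 windows had only 1 or 2 matches. Another 2 exceeded the median by little, with 1.069 against 1.062 at chr8:60000001–70000000 and 1.099 against 1.096 at chr8:90000001–100000000. The median was 1.10 for chromosome 8 and 1.05 for the matched windows, and the median difference between them was 0.0691.

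**Figure D5:**
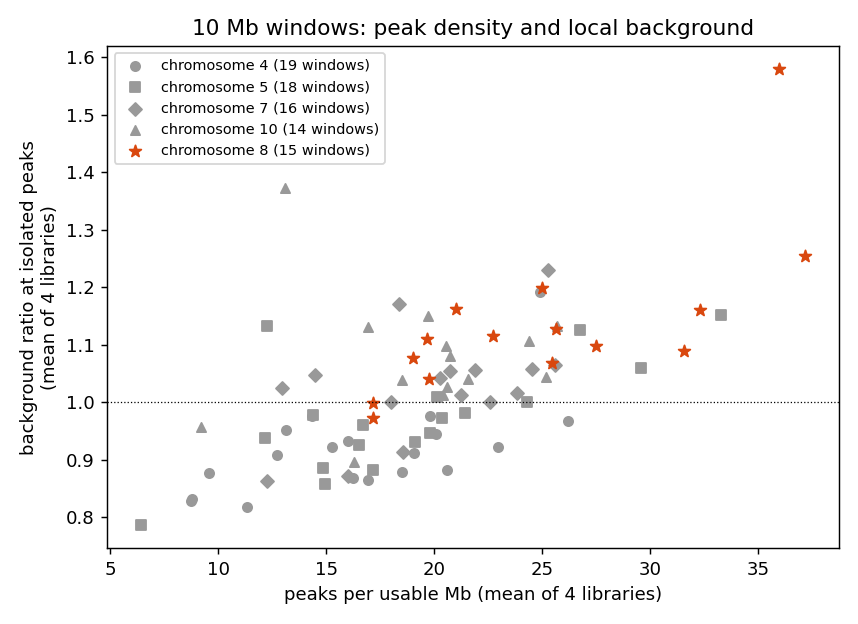
Background ratio at isolated peaks (y axis) against peaks per usable Mb (x axis) in 10 Mb windows, both as means of the 4 libraries, for 15 windows of chromosome 8 (stars) and 67 of the reference (grey). Windows of chromosome 8 lay toward the upper right, from 17.2 to 37.2 peaks per usable Mb and from 0.972 to 1.58 in background ratio.

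Copy number was not measured in these libraries. A gain of the chromosome and a chromosome with more and taller open sites cannot be told apart from peak lists alone, since the local background contains reads of the peaks and was not recorded below the floor. The values that bear on the question are those above. The factor between thresholds, which also takes in the density, was 1.29 to 1.41, and its library medians were 1.28 to 1.34 without the 2 densest windows. Height at shared regions was 1.13 to 1.16 times the reference, and density was higher on both arms. Mean background was 1.12 to 1.17 times the reference with the peak's reads, and 1.09 to 1.18 times at isolated peaks. Median background at isolated peaks was 1.19 to 1.33 times the reference with summit reads taken off. By level of summit reads this ratio ran from 0.833 to 1.57, and the removal itself raises a ratio above 1. In 1 sparse window of 10 Mb, chr8:110000001–120000000, background was below the reference in every library. At isolated peaks its mean ratio was 0.972, against a median of 0.920 in 14 reference windows of like density. By that matching, 13 of 14 windows of chromosome 8 were above the matched median.

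Strong sites of chromosome 8 were taken from the regions listed in all 4 libraries. No genes were assigned to them, because hg19 gene models were not used. The first by its lowest percentile was chr8:100508098–100508177, only 80 bp wide, with 94, 97, 121 and 112 reads. The next was chr8:110551710–110552086, with 104, 86, 115 and 161 reads. It lies in the sparse window chr8:110000001–120000000, which held 3.4, 3.0, 3.2 and 3.7 peaks of 11 reads or more per usable Mb. At chr8:25315889–25316471, in the densest window, the reads were 96, 73, 111 and 120, and the local background was high at 2.82, 2.15, 3.34 and 4.16 reads per base.

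Further tall sites were chr8:118532738–118533082 with 83, 59, 82 and 83 reads and chr8:110346263–110346645 with 88, 49, 79 and 95. At chr8:70602309–70602608 there were 55, 39, 87 and 113 reads. Both AI-10-49 libraries had more reads than either DMSO library at 4 of the 6 sites. Only at chr8:70602309–70602608 did this hold over the floor, where the heights were 897 and 650.0 times the floor under DMSO, and 902 and 1050 times under AI-10-49. Over the floor, both AI-10-49 libraries lay below both DMSO libraries at chr8:100508098–100508177, chr8:25315889–25316471 and chr8:118532738–118533082. Under DMSO these had 1533 and 1617, 1566 and 1217, and 1354 and 983 times the floor. Under AI-10-49 they had 1254 and 1041, 1150 and 1115, and 850 and 771 times. The remaining tall sites had no such split. At the shared regions of chromosome 8 the median height was 146.8 and 150 times the floor under DMSO. Under AI-10-49 it was 103.6 and 102.2 times. The reference medians over the floor were also lower in both AI-10-49 libraries than in both DMSO libraries. A lower height over the floor with AI-10-49 was therefore not particular to the sites named here. Heights of single sites were not tested.

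The chromosome 8 excess after AI-10-49 was then compared with that under DMSO, a contrast that the choice of chromosome did not use. The density ratio was 1.32 ± 0.0121 under DMSO and 1.36 ± 0.00323 after AI-10-49 (SD, n = 2 each). The groups did not overlap, and the difference of 0.0417 had a two-sided exact permutation p of 0.333, the smallest that 2 against 2 libraries allow. When only peaks with a −log10 q-value from 5 upward were kept, the difference turned to -0.0142 (exact permutation p = 0.667). The background ratio was 1.13 ± 0.0228 with DMSO and 1.17 ± 0.00537 with AI-10-49 (SD, n = 2 each; exact permutation p = 0.333). The floor lay higher with AI-10-49, at 15.4 and 16.5 steps against 9.45 and 9.21 with DMSO. The height ratio at shared regions was 1.16 ± 0.00147 with DMSO and 1.13 ± 0.00323 with AI-10-49 (SD, n = 2 each; exact permutation p = 0.333). Adjusted over these 3 tests each p was 0.333, so none passed a threshold of 0.05, which this design cannot reach.

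As a share of regions in both libraries of a treatment, sites of that treatment only were no more frequent on chromosome 8 than elsewhere. DMSO-only regions, listed in both DMSO libraries and in neither AI-10-49 library, were 244 of 2510 on chromosome 8, or 9.72%. The background over all chromosomes was 11.8%, and the reference had 12.4%. AI-10-49-only regions were 76 of 2238, or 3.40%, against a background of 5.36% and 4.71% on the reference. Per usable Mb, chromosome 8 had 1.72 DMSO-only and 0.535 AI-10-49-only regions and the reference 1.65 and 0.537. These densities were thus much closer to each other than those of all peaks. Taller peaks were more frequent on chromosome 8, as given above, and their part in these lower shares was not tested. The DMSO-only share on chromosome 8 lay below the all-chromosome share in the deposited lists and under 6 of 7 other settings. Without DMSO replicate 1 it was 34.1% against 33.9%.

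The strongest DMSO-only region of the chromosome was chr8:143342183–143342328, with 9 and 8 reads in the DMSO libraries. Next were chr8:48079099–48079238 with 6 and 6 reads, chr8:22960134–22960216 with 7 and 7, and chr8:144410861–144410991 with 8 and 7. The first and the fourth lie in the window at the end of the long arm. For AI-10-49-only regions the strongest was chr8:12293874–12293989, with 7 and 8 reads under AI-10-49. Then came chr8:23315087–23315199 with 10 and 9, chr8:109278845–109278932 with 6 and 7, and chr8:1863112–1863347 with 8 and 11. All 8 regions had at most 11 reads, compared with at least 39 reads in each library at the 6 tall shared sites.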

How the data were processed

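Accessible chromatin was measured by ATAC-seq in 4 libraries, 2 with DMSO and 2 with AI-10-49, grouped by sample title. Per the submitters' processing notes, cutadapt 1.3, Bowtie2, Picard 1.96, MACS2 2.1.0 and deepTools were used on build hg19; their settings are not given in the sources used here. The deposited peak lists, 1 per library, hold a score (not used), a fold enrichment at the summit, the −log10 p-value and the −log10 q-value, all from the authors' peak caller, and the summit position.

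Only autosomal and X peaks were kept, and rows with equal coordinates were collapsed to the one with the highest −log10 p-value. Summit reads k and local background were solved from fold = (k + 1)/(background + 1) and the Poisson p of more than k reads, within 0.001 of the deposited −log10 p-value. This gave whole numbers for all but 4 or 5 peaks per list and for every peak of chromosome 8. The floor is the most frequent background. Recovery and the weighted ratio were tested on simulated data. There, background was drawn independently of summit reads, and the floor was scaled with it. The effect of a shared floor and of the peak's own reads on the ratio was therefore not tested. The floor stands for depth, since library totals are not given in the sources used here.

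Regions merged peaks overlapping by at least 1 bp. A 10 Mb window needed 5 usable Mb. Percentiles are of the −log10 p-value within a list. Named regions are the 6 strongest of all 4 lists and the 4 strongest of each treatment only, and named windows the 3 densest and 3 sparsest. Coding genes were counted per chromosome in the RefSeq gene table (GRCh38.p14), whose coordinates were not used. Group means were compared by two-sided exact permutation. Chromosome, lists and rules were chosen with earlier results of these data known. Python 3.11.15, numpy 2.4.6, pandas 2.3.3, scipy 1.17.1 and matplotlib 3.10.9 were used.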

Additional observations from a re-analysis of the deposited data

How the results depend on the processing

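Every alternative kept the density, background and height ratios of chromosome 8 above 1 in all 4 libraries. Mean density ratio, 1.34 in the deposited lists, was 1.38 under the q-value filter (−log10 of 5 or more), 1.43 with at least 5 summit reads, 1.28 and 1.37 without chromosome 4 or 7 in the reference, 1.20 against all other autosomes and 1.25 without the 2 densest windows. Mean background ratio, 1.15, was 1.12 under the q-value filter, 1.12 without chromosome 4, 1.09 against all other autosomes and 1.12 at 3 to 5 reads. It was 1.10 as the share above the floor, 1.26 by medians at isolated peaks with summit reads taken off, and 1.10 without the 2 windows. Mean height ratio, 1.15, was 1.12 by medians and 1.17 without the 2 windows. The last setting of each list, and the removal of summit reads, were chosen after seeing the data.

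For treatment, the density difference of 0.0417 turned to -0.0142 under the q-value filter and ranged from 0.0331 to 0.0502 leaving out each library. Differences in background and height kept their direction in 7 of 7 alternatives each. The background difference of 0.0311 was 0.0150 without DMSO replicate 1 and 0.0473 without DMSO replicate 2. DMSO-only regions fell from 244 to 91 under the q-value filter and to 109 with lists of equal length, and were 421 to 1350 leaving out each library. AI-10-49-only regions were 76, 117 with equal lists and 202 to 472 leaving out each library, since presence in 1 library then suffices or absence from 1. Same-numbered replicates did not deviate together (r = -0.00240 over 28987 shared regions), and with the replicate number as a block the differences stayed 0.0417, 0.0311 and -0.0285 with an exact permutation p of 0.5 each.

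The number of reads at low peaks limits what can be seen: below the floor, background was not recorded.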
